A study of Mus musculus with 6 samples.

Results

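The cytosolic ribosomal protein genes were compared between wild-type mouse bone marrow cells (WT, 3 arrays) and cells lacking Spred1 (KO, 3 arrays). Members were chosen by symbol: every name of the array's design made of Rps, Rpl or Rplp, a number and at most a short suffix, which leaves out the S6 kinases and the annotated pseudogenes. This took 83 of 34650 gene names, carried by 188 probes. Of these, 30 encode proteins of the small subunit, 42 of the large subunit and 3 of its stalk, and 8 have symbols of divergent paralogues. Both genotypes were labelled as strain C57BL/6, and the cells were sorted from bone marrow for surface c-Kit and Sca-1 and against CD48 and lineage markers, which selects blood stem cells and early progenitors. Total RNA was labelled with Cy3 by a kit for low RNA input, 1 sample per array. Age, sex, the deleted part of Spred1 and whether the replicates came from separate animals are not stated in the labels. The p-values therefore measure only how far these samples scatter, which may be technical.

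Ribosomal proteins are the structural partners of ribosomal RNA: those of the small subunit help to read the messenger RNA, and those of the large subunit surround the site of peptide bond formation and the exit of the new chain. Their genes are transcribed at high rates in nearly all cells, and their messenger RNAs begin with a stretch of pyrimidines, the terminal oligopyrimidine tract, through which growth signals set how much of them is translated. In blood, loss of a single copy of several of these genes causes Diamond-Blackfan anaemia, a failure of red cell production. The Spred1 protein restrains the Ras-ERK cascade, which carries growth factor signals into the cell. The comparison asks whether the transcripts of these genes differ in stem and progenitor cells when Spred1 is lost.

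No ribosomal protein transcript passed the test for a difference between the genotypes. Of the 80 members with a measurable signal, 0 were called higher and 0 lower in KO (limma, adjusted p under 0.05 over 19610 features), where 2 features in all, 0.0102%, were called higher and 2, 0.0102%, lower. At an unadjusted p under 0.05 limma gave 2 members higher, Rps4l and Rplp1, and 0 lower, beside 7.19% and 5% of all features. The family nevertheless measured slightly higher in KO as a block: 71 of the 80 genes had a higher mean, beside 48.9% of all features, and the median difference was 0.094 on the log2 scale, beside -0.0056 over all features. Both the sign and the size of that block difference depended on how the arrays were scaled to each other, as described further on.

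The targeted gene had 3 probes, all well above background on all 6 arrays, and they moved apart. A probe of Spred1 read 1.35, 1.26 and 1.27 in WT and 0.32, 0.42 and 0.19 in KO, another read -2.06, -2.52 and -2.23 in WT and 0.37, 0.16 and -0.0028 in KO, and the remaining probe differed by -0.14 ± 0.099 (SE). All 8 transcripts of the gate list were above background on all 6 arrays, the stem cell genes Kit, Ly6a, Cd34, Procr and Slamf1 included. Cd48, whose protein was sorted against, was also above background, between -0.53 and 0.34. Values here and below are levels: log2 signals relative to the 75th percentile of the same array, so that 0 is a signal equal to that percentile.

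WT replicate 1 stood apart from the other arrays. The 10 neutrophil genes of the marker list were above background on all arrays, and their median deviation from the WT mean was -1.68 on WT replicate 1 and between 0.088 and 0.86 on the other 5. The monocyte and macrophage list was also low there, at -0.68 against 0.043 to 0.53. The B cell list read -0.69 against 0.027 to 0.78, but only 3 of its 7 genes were above background on all arrays. Its summed log2 level was 3.26 on WT replicate 1 and 3.30 to 3.56 on the other arrays. The erythroid list read -0.21 against -0.046 to 0.34. The T and NK cell list was not lowest there, at -0.093 against -0.13 on WT replicate 3. The summed signal of the neutrophil list, as a log2 level, was 6.81 to 9.19 in WT and 8.54 to 8.92 in KO. Of the B cell list Ebf1, Igll1 and Pax5, and of the T and NK cell list Cd3g, were not well above background on any array. WT replicate 1 was also the array with the lowest level for 63 of the 80 ribosomal protein genes. Without it the median difference of the members was 0.053, and the part of these marker levels in the result was not tested. In sorted bulk RNA, fewer cells of a type and less RNA per cell cannot be told apart.

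What many of the members share beyond their names could be looked for in RefSeq's gene starts (mouse build GRCm38.p6). These gave 73 start windows for 61 of the 83 members. The sequences below run from 60 bases before the annotated start to 30 bases after it, on the gene's strand, with the first of the longest unbroken runs of C and T in capitals, since a second run of equal length can follow. They are shown to make such a run near the start visible, and because these 5 genes lie at different places in the comparison. All were printed with a long run, so they do not show how common one is. The runs of Rplp2, Rps10 and Rpl22l1 begin at -5, -3 and 1 from the annotated start. Those of Rpl5 and Rps27l begin at -20 and -22 and end before it. Windows of Rpl12, Rpl23, Rplp0 and Rpl9 were prepared too and left out, with longest runs of 7, 6, 7 and 4 bases. Those of Rps24, also left out, had 9 and 19. Rps27l has 2 annotated starts, and the window of the other start, not printed, had a longest run of 5 bases.
Rplp2 (chr7:141447591-141447680, plus strand): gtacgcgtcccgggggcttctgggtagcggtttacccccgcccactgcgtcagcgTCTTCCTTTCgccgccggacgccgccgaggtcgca
Rps10 (chr17:27635215-27635304, minus strand): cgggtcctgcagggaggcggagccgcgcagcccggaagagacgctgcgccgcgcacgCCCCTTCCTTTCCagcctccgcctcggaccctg
Rpl5 (chr5:107900468-107900557, plus strand): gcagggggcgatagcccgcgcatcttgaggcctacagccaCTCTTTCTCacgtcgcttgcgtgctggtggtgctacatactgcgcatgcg
Rpl22l1 (chr3:28805448-28805537, plus strand): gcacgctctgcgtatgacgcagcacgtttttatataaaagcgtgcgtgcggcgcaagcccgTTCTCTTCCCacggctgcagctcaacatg
Rps27l (chr9:66946026-66946115, plus strand): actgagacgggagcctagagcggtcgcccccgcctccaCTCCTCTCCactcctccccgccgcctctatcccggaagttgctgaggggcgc

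A run of 8 or more pyrimidines within 20 bases before to 30 bases after the start was found in 34 of the 61 members (55.7%), beside 21.5% of 27025 genes in the same table. On the opposite strand the run was found in 9.84% of members and 24.7% of all genes. The letters CCGGAAG, the core bound by Ets factors, were found on either strand of the 300-base window in 39.3% of members and 9.93% of all genes. TATAAA, the TATA box, was found on either strand in 11.5% of members and 15.7% of all genes. The searched letters do not overlap one another, apart from the pyrimidine run, which can hold part of CTTCCGG. The tract did not sort the members by their difference between genotypes: the 34 members with it had a median difference of 0.087 and the 24 measured members without it 0.092. The 23 measured members with CCGGAAG had a median of 0.081 and the other 35 a median of 0.091. A match is a description of these letters and not evidence of binding.

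The small subunit genes lay close together. The median difference over the 30 genes was 0.094, 28 had the higher mean in KO, and 3 did not overlap between the genotypes. For comparison, all KO arrays lay above all WT arrays for 9.76% of features and below them for 9.66%. Rps20 read 9.28, 9.43 and 9.48 in WT and 9.65, 9.49 and 9.61 in KO, with no overlap, although KO replicate 2 lay only just above WT replicate 3. Its difference was 0.18 ± 0.093 (limma adjusted p = 0.463). Rps14, whose human counterpart is lost in a form of myelodysplasia, read 9.46, 9.54 and 9.63 in WT and 9.77, 9.64 and 9.71 in KO, a difference of 0.16 ± 0.087 (adjusted p = 0.477). It too had no overlap between the genotypes.

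At the other end of the small subunit, Rps3a1 read 8.62, 8.67 and 8.71 in WT and 8.69, 8.60 and 8.59 in KO, a difference of -0.040 ± 0.079 with overlapping groups. Rps19, the gene most often mutated in Diamond-Blackfan anaemia, read 7.46, 7.46 and 7.55 in WT and 7.48, 7.41 and 7.54 in KO. Its groups overlapped throughout, with a difference of -0.014 ± 0.081 and a 95% interval from -0.21 to 0.18. Rps6, the protein phosphorylated by S6 kinase downstream of growth factors, differed by 0.031 ± 0.079. Rps7 differed by 0.012 ± 0.077 and was among the 4 members with the smallest spread within genotypes (SD 0.040). Rps15 was among the 4 with the largest (SD 0.17), reading 7.29, 7.58 and 7.65 in WT and 7.60, 7.42 and 7.73 in KO.

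The large subunit genes had a median difference of 0.092, with 38 of 42 higher in KO. Of the 42, 7 had all KO arrays above all WT arrays (16.7%, beside 9.76% of all features), among them Rpl3, Rpl6, Rpl7, Rpl7a, Rpl23 and Rpl37a. In 1, Rpl5, they lay all below (2.38%, beside 9.66%). Rpl23, a protein that also binds the p53 inhibitor Mdm2, read 8.806, 9.003 and 8.978 in WT and 9.164, 9.045 and 9.136 in KO. The difference was 0.19 ± 0.092 (limma adjusted p = 0.452), with WT replicate 1 the lowest array. Rpl12, which sits at the base of the stalk, read 8.86, 8.93 and 9.03 in WT and 9.19, 9.02 and 9.13 in KO. Its lowest KO array fell just under its highest WT array, and the difference was 0.18 ± 0.090 (adjusted p = 0.46). Rpl37a, like Rps14 among the 3 brightest members, differed by 0.16 ± 0.090.

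Rpl5 went against the rest of the subunit. Its protein binds the 5S ribosomal RNA together with Rpl11, and the free complex holds back Mdm2. It read 7.14, 7.15 and 7.18 in WT and 7.07, 7.12 and 7.03 in KO, so that all KO arrays lay below all WT arrays. The WT arrays were unusually tight (SD 0.019), and the difference, -0.083 ± 0.076, did not pass the test (adjusted p = 0.653, 95% interval -0.27 to 0.099). Its partner Rpl11 measured 0.12 ± 0.083 in the other direction, with overlapping groups. Rpl21 had the largest negative difference of the subunit, -0.11 ± 0.13, and one of the widest spreads. It read 7.66, 7.32 and 7.70 in WT and 7.30, 7.59 and 7.45 in KO, a pattern over the arrays unlike that of the other large subunit genes. Rpl36a, -0.018 ± 0.082, and Rpl31, -0.0070 with overlapping groups, complete the 4 large subunit genes with lower means in KO.

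**Figure D1:**
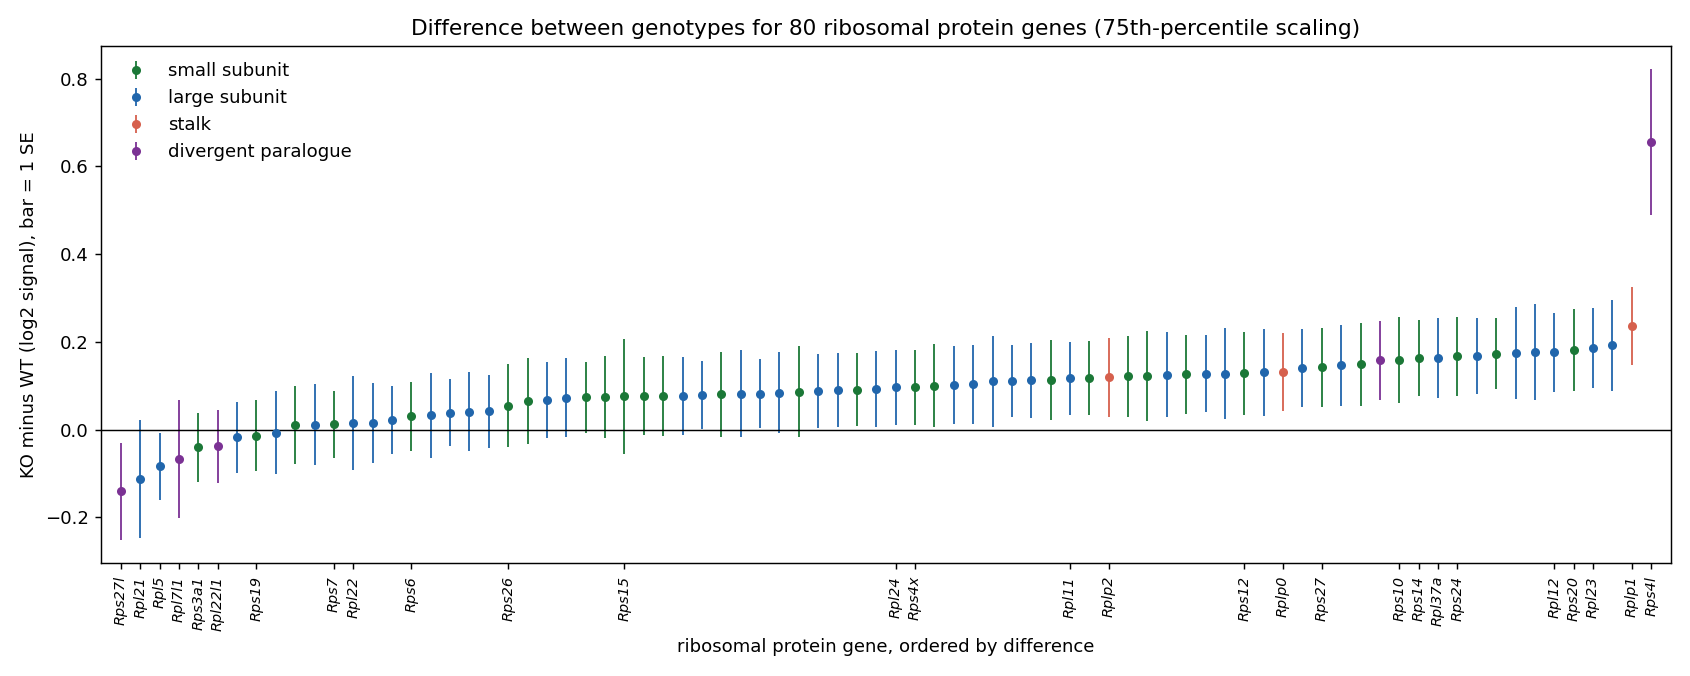
Difference between genotypes, KO minus WT in log2 signal, for each of the 80 measured ribosomal protein genes, ordered by size and coloured by role, with some genes named. Points are differences of the means of 3 arrays and bars are 1 SE of the limma fit. Of the 75 small subunit, large subunit and stalk genes, 69 lie above 0, none beyond 0.236, and Rps4l stands alone at 0.655.

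The stalk is the mobile arm of the large subunit that recruits elongation factors, built of Rplp0 and of pairs of Rplp1 and Rplp2. All 3 genes had higher means in KO. Rplp1 read 8.90, 8.93 and 9.01 in WT and 9.27, 9.08 and 9.19 in KO, with no overlap between the genotypes. At 0.24 ± 0.088 (118% of WT, limma adjusted p = 0.392) it had the largest difference of the 75 standard genes, those that are not divergent paralogues. Rplp0 (9.09, 9.17 and 9.24 in WT, 9.33, 9.21 and 9.35 in KO) and Rplp2 (9.12, 9.25 and 9.30 in WT, 9.40, 9.26 and 9.37 in KO) differed by 0.13 ± 0.088 and 0.12 ± 0.090, each with KO replicate 2 below WT replicate 3.

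Rps4l differed most of all members. It is a divergent relative of Rps4x on chromosome 6, and the array ties its only probe to a non-coding RefSeq transcript. The probe lies at chr6:148304043-148304102 (mm9, plus strand), from base 865 of that transcript, and is shown because no other member moved as far.
Rps4l probe: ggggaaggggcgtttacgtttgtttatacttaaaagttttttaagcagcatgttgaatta
It read 1.39, 1.73 and 1.15 in WT and 2.19, 1.89 and 2.15 in KO, a mean of 157% of WT, and every KO array was above every WT array. The difference of 0.65 ± 0.17 (SE; 95% interval 0.26 to 1.05) had limma adjusted p = 0.361, and the exact two-sided permutation test gave the smallest p that 3 against 3 arrays allow, 0.1. It was also the only member higher in KO under all 10 scalings between arrays listed further on, from 0.35 to 0.70. Those that subtract a constant from each array shift every gene alike, so the 10 are not separate checks. The standard gene Rps4x differed by 0.096 ± 0.085 with overlapping groups.

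Of the other 4 measured divergent paralogues, 3 had lower means in KO. Rps27l, a p53 target related to Rps27, read 5.03, 4.94 and 5.22 in WT and 5.06, 4.84 and 4.87 in KO, a difference of -0.14 ± 0.11 (adjusted p = 0.597), beside 0.14 ± 0.090 for Rps27. Rpl22l1, which can replace Rpl22 in the ribosome, differed by -0.038 ± 0.083 and Rpl22 by 0.015 ± 0.11. Rpl7l1, at the level of -0.58 the dimmest measured member, differed by -0.067 ± 0.13 and Rpl7 by 0.079 ± 0.078. Rpl3l, Rpl10l and Rpl39l, known from striated muscle or testis, were well above background on 2, 0 and 3 of the 6 arrays and were not tested. Rpl21, Rpl5, Rpl7l1 and Rps27l were the 4 members lower in KO under all 10 scalings, which, as for Rps4l, are not separate checks.

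Rps12l2 and Rps12 had near-identical probes on the array and cannot be told apart with certainty. The symbol Rps12l2 is that of the array's design and was not found in the RefSeq table. A probe of each gene is shown to make the likeness visible, with the 3 differing bases of their 56-base overlap in capitals. For Rps12 it is the tested probe. For Rps12l2 it is not: the brighter probe that stood for the gene differed by 0.16 ± 0.090 between genotypes. The Rps12 probe shown lies at chr10:23505428-23505711 across an exon junction and the Rps12l2 probe shown at chr8:37089026-37089085 (both mm9).
Rps12: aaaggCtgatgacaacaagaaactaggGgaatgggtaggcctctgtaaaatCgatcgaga
Rps12l2: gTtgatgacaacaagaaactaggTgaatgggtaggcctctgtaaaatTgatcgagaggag
The 2 probes differed by nearly the same amount between genotypes, 0.13 and 0.12. Such sharing was common: the tested probes of 42 of the 80 members had at least 20 bases in a row in common with a probe of another name on the array, and those of Rps27 and Rps29 were placed on another chromosome than the gene. Transcripts of near-identical copies and pseudogenes may therefore add to the signals.

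Probes of a single gene did not always go the same way. Of the 60 members with several measurable probes, 22 had probes of both signs, and none had probes more than 1 log2 unit apart in their difference. Rpl31 had 4 measurable probes with differences from -0.26 to 0.15, of which 2 were higher in KO. Its dimmest probe, at a mean level of 1.95, read 2.24, 1.97 and 2.03 in WT and 1.95, 1.98 and 1.54 in KO, a difference of -0.26 ± 0.15 (limma adjusted p = 0.524 over all probes) with overlapping groups. Rpl6 also had 4, with differences of 0.082, 0.00017, -0.019 and -0.23. The last of these was again the dimmest, at a mean level of -1.88 against 8.84 for the brightest. Over the standard genes, 11 measurable probes of 10 genes had a mean level below 3, and 9 of them were lower in KO with a median of -0.13. Of the 164 probes at or above 3, 141 were higher and 23 lower, with a median of 0.082. Other probes in these ranges of level had medians of -0.014 and -0.021.

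Members known from blood showed the same narrow range. Among the genes of Diamond-Blackfan anaemia, Rps10 (0.16 ± 0.097), Rps24 (0.17 ± 0.090), Rpl11 and Rpl35a (0.093 ± 0.088) measured higher, Rps26 (0.055 ± 0.094) less so, Rps7 and Rps19 near 0, and Rpl5 lower. None of these passed the test. Rpl24, whose loss of a copy lowers protein synthesis in mouse stem cells, read 8.33, 8.44 and 8.51 in WT and 8.53, 8.47 and 8.57 in KO, a difference of 0.096 ± 0.086. Rpl22, a tumour suppressor in T cell leukaemia, differed by less than its spread between arrays.

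The members moved across the arrays as a block. Their within-genotype spread had a median SD of 0.084, beside 0.14 over all features, and it dropped to 0.034 once each array's median over the family was subtracted. All features are mostly dimmer, with a median level of 0.62 against 8.52, and no set of like level was compared. The subtraction uses the family's own values, so part of the drop follows from it. No other set was treated this way. WT replicate 1 was the lowest of the WT arrays for 69 of the 80 genes and WT replicate 3 the highest for 74, and KO replicate 2 was the lowest of the KO arrays for 72. The median of the 80 genes, each relative to its own mean over the arrays, was -0.14, -0.060 and 0.037 on the WT arrays and 0.098, -0.026 and 0.079 on the KO arrays. The groups overlapped, since WT replicate 3 lay above KO replicate 2. Measured relative to the family's own median, Rps4l differed by 0.55 ± 0.18 and Rps27l by -0.25 ± 0.096, both with a limma adjusted p of 0.322. This scaling was chosen with the values in view.

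**Figure D2:**
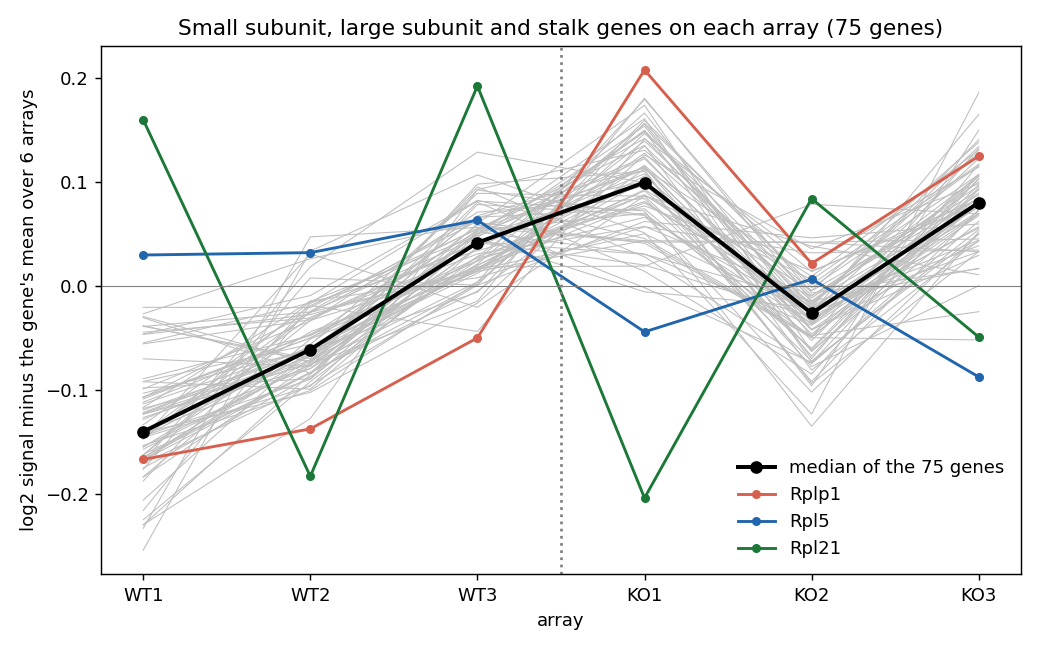
Level of each of the 75 standard genes on the 6 arrays, as log2 signal minus the gene's mean over all arrays. Grey lines are single genes, the black line their median, and the coloured lines Rplp1, Rpl5 and Rpl21. Most grey lines follow the black one, with WT replicate 1 lowest, while Rpl5 is flat in WT and lower in KO and Rpl21 swings against the rest.

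The members lay at the top of the signal range. Of the 80, 77 were among the brightest 5% of features, of which they made up 7.85%, and they held 31 of the 100 brightest places. In that brightest 5% the other features had a median difference of 0.060 and the members 0.096. In the bins from the 50th to the 95th percentile the other features had medians between -0.067 and -0.034, and in the dimmest bin 0.17. Differences between genotypes therefore ran with signal across the whole array. Among the 75 standard genes the difference also ran with level, with Pearson's r of 0.57 and Spearman's rho of 0.60. These describe 75 genes on the same 6 arrays, which are not independent replicates.

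**Figure D3:**
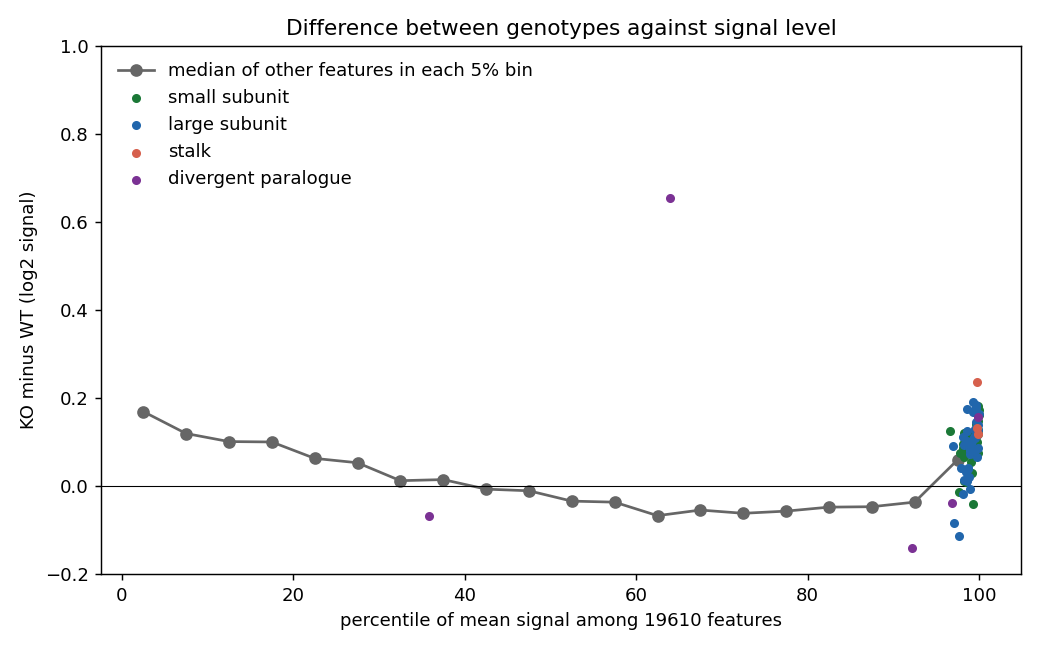
Difference between genotypes, KO minus WT in log2 signal, against the percentile of the mean signal among 19610 features. Grey points joined by a line are medians of the other features in bins of 5%, and coloured points are the 80 members. The line runs from 0.17 at the dimmest bin to below 0 in the middle and to 0.060 at the top, where 77 of the members lie.

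The scaling between arrays decided the sign of the block difference. Subtracting a constant from each array kept the members 0.10 above all features, whichever constant was used, but placed both elsewhere. The median of the members was 0.093 with the median of probes above background, 0.14 with their 75th percentile, 0.092 in the authors' deposited value table, -0.052 with no scaling and -0.21 with the Agilent spike-in probes. The spike-in scaling was added with the values in view. The median of all features moved to -0.15 with no scaling and to -0.31 with the spike-in probes, whose own signals were 0.39 below their mean on WT replicate 1 and 0.23 above it on KO replicate 1. After normexp background correction the median was 0.074 with the 75th percentile and -0.015 with quantile normalization. Scalings that follow signal level gave smaller sizes: 0.069 after cyclic loess, with 64 of 80 genes higher, and -0.013 after quantile normalization, with 26 higher and 54 lower. Quantile normalization gives every array the same distribution of signals, in whose upper end the members lie.

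The order of the arrays changed with the scaling too. After cyclic loess the family medians were -0.037, -0.026 and -0.045 in WT and 0.062, -0.0067 and 0.050 in KO, with no overlap. After quantile normalization they were 0.0098, 0.012 and 0.0079 in WT and -0.0031, -0.0094 and -0.0046 in KO, again with no overlap but in the other direction. Of the 80 members, 75 had a higher mean in KO under some of the 10 scalings and a lower one under others. In none was a member called. The arrays lay on 2 slides scanned apart, and the median was 0.12 within slide 1 (2 arrays per genotype) and 0.045 within slide 2 (1 array per genotype), with 73 and 59 genes higher.

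**Figure D4:**
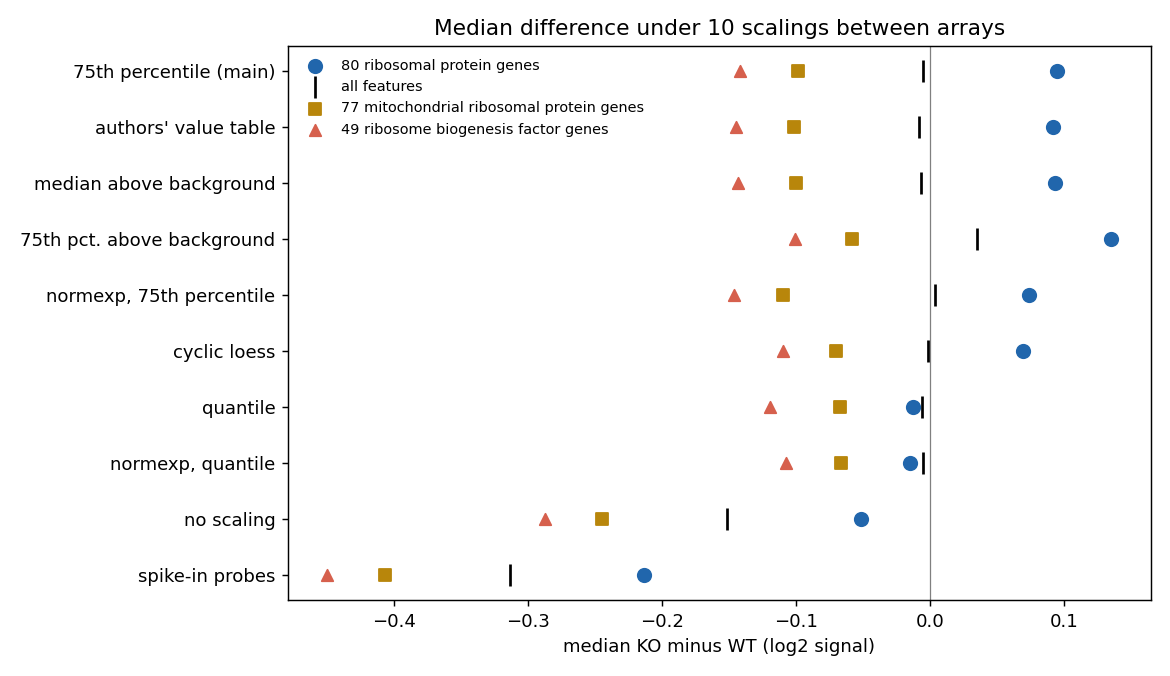
Median difference between genotypes, KO minus WT in log2 signal, of 3 gene lists and of all features under 10 scalings between arrays. Circles are the 80 ribosomal protein genes, squares the 77 mitochondrial ribosomal protein genes, triangles the 49 ribosome biogenesis factors and bars all features. The circles run from -0.21 to 0.14 and cross 0, and in every row they lie to the right of the squares and triangles.

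Ribosomal protein genes outside the symbol rule lay within the range of the members. Rpsa, a small subunit protein also known as the laminin receptor, read 8.59, 8.72 and 8.81 in WT and 8.96, 8.85 and 8.90 in KO (0.19 ± 0.093, limma adjusted p = 0.443). Fau (0.13 ± 0.10), which encodes a ribosomal protein fused to a ubiquitin-like protein, measured higher and Rpl36al (-0.019 ± 0.096) did not. Gnb2l1, the small subunit scaffold RACK1, measured 0.20 ± 0.089 (limma adjusted p = 0.427) with all KO arrays above all WT arrays. The same held for the elongation factor Eef1a1 (0.13 ± 0.079, limma adjusted p = 0.522). Both were named outside the rule given further on. Of 37 translation factors, 27 were lower and 2 (5.41%) had all KO arrays above all WT arrays, beside 9.76% of all features.

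Genes that build the ribosome measured the other way. Of the 49 ribosome biogenesis factors above background, 49 had a lower mean in KO, with a median of -0.14. None was called, and 8 had an unadjusted limma p under 0.05 in the lower direction (16.3%, beside 5% of all features). In 12 all KO arrays lay below all WT arrays (24.5%, beside 9.66% of all features). Mphosph10, of the complex that processes the small subunit RNA, read -0.29, -0.29 and -0.39 in WT and -0.69, -0.72 and -0.77 in KO (-0.41 ± 0.079, limma adjusted p = 0.355). Bysl, needed for small subunit assembly, differed by -0.39 ± 0.10 and Nop16, a nucleolar protein of the large subunit pathway, by -0.36 ± 0.097 (adjusted p = 0.361 for both). The abundant nucleolar proteins Npm1 (-0.10 ± 0.10), Fbl (-0.060 ± 0.090) and Ncl (-0.036 ± 0.083), named after their values had been seen, differed by little.

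The 77 mitochondrial ribosomal protein genes, which serve the separate ribosome of the mitochondrion, had a median of -0.099, with 64 lower. Of these 3 (3.9% of the list) had an unadjusted p under 0.05, beside 5% of all features in that direction, and 10 (13% of the list) had all KO arrays below all WT arrays, beside 9.66%. Without WT replicate 3 the list's median was -0.031 and within slide 1 it was -0.032. Mrps5 (-0.30 ± 0.11), Mrps6 (-0.29 ± 0.11) and Mrpl36 (-0.20 ± 0.080) had the smallest p-values (limma adjusted p = 0.384, 0.392 and 0.401). Of 37 translation factors 27 were lower, with a median of -0.069. Among these, 4 (10.8% of the list, beside 5% of all features) had an unadjusted limma p under 0.05. They were led by Eif5a (-0.33 ± 0.12), Eif3b (-0.30 ± 0.11) and Eif3i (-0.24 ± 0.094). The 19 genes of RNA polymerase I, which transcribes ribosomal RNA, had a median of -0.049, which was 0.0026 without WT replicate 3 and -0.012 within slide 1. Among them were Twistnb (0.24 ± 0.089) and Taf1b (0.36 ± 0.14) at unadjusted p-values under 0.05 in the higher and Polr1b (-0.28 ± 0.12) with no overlap in the lower direction. These lists lie lower in signal than the members, with median levels of 3.09, 2.37, 5.72 and 2.58 for mitochondrial proteins, biogenesis factors, translation factors and RNA polymerase I against 8.52, and the other features of the range between the 50th and 95th percentile also had negative medians. The part of signal level in these differences was not tested.

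The gap between ribosomal proteins and biogenesis factors kept its direction under the scalings that moved the family. This gap was chosen for description with the values in view. The members' median minus that of the biogenesis factors was -0.25, -0.078 and -0.076 on the WT arrays and 0.19, 0.0029 and 0.21 on the KO arrays. After cyclic loess it was -0.14, -0.048 and -0.10 in WT and 0.15, 0.0062 and 0.17 in KO. After quantile normalization it was -0.10, -0.0025 and -0.055 in WT and 0.087, 0.0062 and 0.10 in KO. All KO arrays lay above all WT arrays in each of the 3, with KO replicate 2 the closest to WT every time. Against the mitochondrial ribosomal proteins the gap separated the genotypes in the main scaling (-0.13, -0.030 and -0.13 in WT, 0.095, 0.054 and 0.12 in KO) and after cyclic loess but not after quantile normalization, where WT read 0.017, 0.039 and -0.10 and KO -0.023, 0.065 and 0.010.

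**Figure D5:**
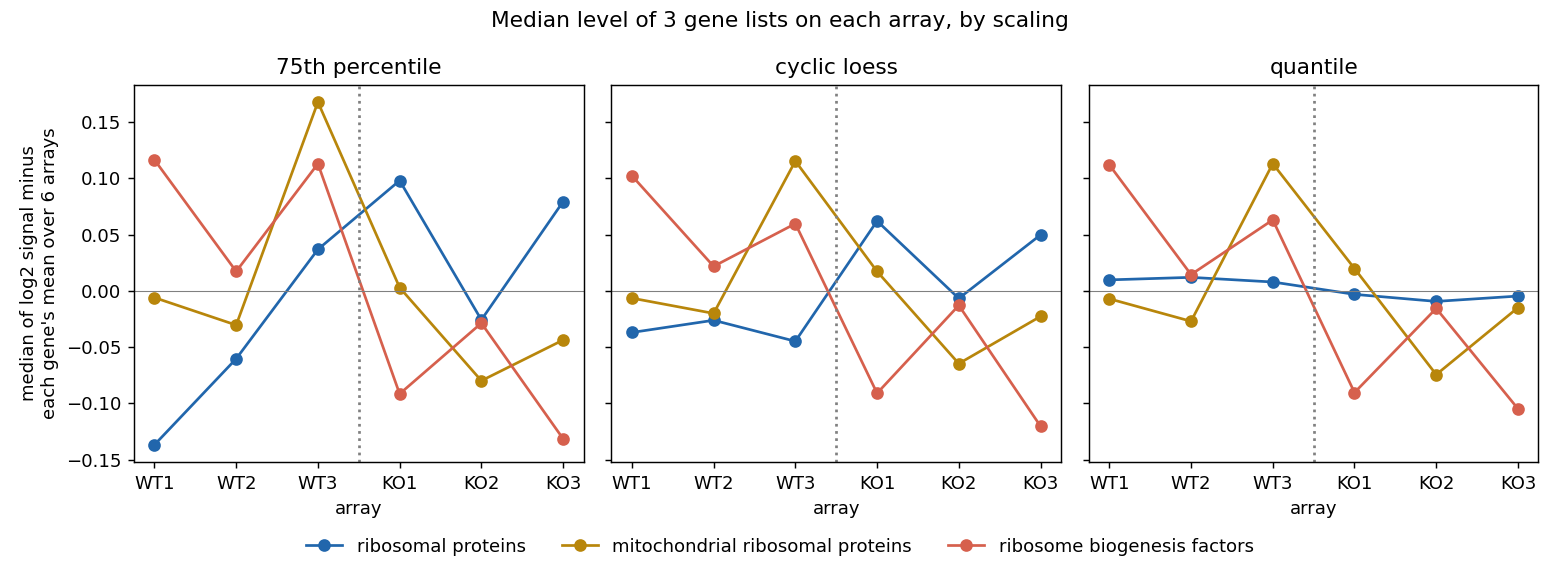
Median level of the ribosomal protein genes, the mitochondrial ribosomal protein genes and the ribosome biogenesis factors on each array, as log2 signal minus each gene's mean over 6 arrays, under 3 scalings. The biogenesis factors lie above 0 on all WT arrays and below 0 on all KO arrays in each panel, while the ribosomal proteins change their order from panel to panel.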

How the data were processed

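The authors deposited Agilent scanner files, read with Feature Extraction 10.7.3.1 per the submitters' processing notes. Their processed signal is an intensity on a linear scale, corrected for background within each array per the file headers. The value table the authors deposited is this intensity over a constant of 304 to 368 for each array, and it served as an alternative. Of 59305 spots other than controls per array, 92 to 155 marked as outliers were left out and none was saturated. Spots were averaged per probe (55681), and log2 values were taken relative to the array's 75th percentile. The probe with the highest mean stood for a gene. Features had to be well above background on all 3 arrays of a genotype, which kept 19610. Positions are those of the files (mm9), and 82 of 83 symbols were found in RefSeq. The test of KO against WT was limma 3.58.1 (R 4.3.3, eBayes, Benjamini-Hochberg, threshold 0.05), and the fit was tested on simulated data. Noise in the simulation was drawn for each gene on its own, without the shared movement of the members seen here. It therefore does not bear on the block difference. Array number, 3 per genotype, limits the precision.

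The members, gene lists and alternatives were chosen with earlier results of these data known. Most genes were named by rule: the 8 members of smallest p in each direction, the stalk, and the paralogues with their counterparts. The rule also took members known from blood, those of extreme spread or level and the 4 genes outside the symbol pattern. In each other list it took the 3 of smallest p. Gnb2l1, Eef1a1, Npm1, Fbl and Ncl were named outside it. Alternatives covered scaling, background, filter, choice of probe, slide, replicate block, variance model and each array left out. Deviations of same-numbered arrays correlated at most weakly over all features, which with 3 arrays per genotype cannot exclude pairing. The numbers were not taken as pairs in the main fit, and a replicate block was run as an alternative. Some of the genes this rule takes are not reported here.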

Additional observations from a re-analysis of the deposited data

How the results depend on the processing

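No member was called in either direction under any alternative run. The median difference of the members, 0.094, moved to -0.013 under quantile normalization. It was -0.015 when normexp preceded that step, -0.052 with no scaling and -0.21 with spike-in scaling. Scaling on the median ribosomal protein gene gave -0.0096. That scaling subtracts the family's own median from each array, which fixes this value by construction, so it is no check of the block difference. With an array left out, the members' median ranged from 0.053 (without WT replicate 1) to 0.14 (without WT replicate 3).

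The count of members higher at an unadjusted p under 0.05, 2, was 1 under quantile normalization with or without normexp, with no scaling, with the mean of all probes, with scaling on the median ribosomal protein gene and with a replicate block, 0 within slide 1 and with spike-in scaling, 4 of 181 probes tested on their own, 8 with the 75th percentile of probes above background and 12 with a prior variance that follows the mean. It ranged from 1 to 3 with an array left out. The count lower, 0, was 1 with no scaling, with scaling on the median ribosomal protein gene and among single probes. The causes were not tested, and the fit within slide 1 also had fewer arrays. Deviations of same-numbered arrays correlated at -0.025, 0.15 and 0.071 over all features and at -0.52, -0.30 and 0.057 over the members. With 3 arrays per genotype these values cannot exclude pairing. Same-numbered arrays also shared a slide, numbers 1 and 2 on slide 1 and number 3 on slide 2. With 3 arrays per genotype, the standard genes' SEs of 0.076 to 0.13 limit what can be seen.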
